A study of Mus musculus with 6 samples.

Results

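The genes studied here encode subunits of the NMDA receptor (*Grin1*, *Grin2a*, *Grin2b*, *Grin2c*, *Grin2d* and *Grin3a*) and postsynaptic scaffold proteins (*Dlg3*, *Shank1*, *Shank2* and *Shank3*). They were taken by symbol, and all 10 were found among the 50508 symbols listed for each library. RNA had been prepared from primary neurons of newborn C57Bl/6J mice, and 3 libraries per group were deposited. Every culture received a lentivirus that encodes catalytically inactive Cas9 joined to the activation domain VP160 (dCas9A), and a single guide RNA. In the Ctrl-dCas9A group the guide targets the bacterial gene LacZ (treatment sgLacZ, genotype control), and in the Kcna1-dCas9A group it targets the promoter of *Kcna1* (treatment sgKcna1; the labelled genotype is Kv1.1 upregulation by CRISPRa). The Ef1alpha promoter that drives dCas9A is not restricted to neurons, so that glia in the cultures could carry it as well. The labels give hippocampus as the region, whereas the culture methods describe cortical neurons. The comparison between the groups asked which genes other than *Kcna1* differ once the guide is changed.

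NMDA receptors are glutamate-gated cation channels that pass calcium when glutamate and a co-agonist, glycine or D-serine, are bound while the membrane is depolarized. Each receptor holds GluN1, from *Grin1*, together with GluN2 subunits from *Grin2a* to *Grin2d* or GluN3 subunits from *Grin3a* and *Grin3b*, and the GluN2 subunit sets how long the channel stays open and how strongly magnesium blocks it. GluN2B prevails in forebrain neurons around birth and GluN2A gains ground during postnatal maturation. The GluN2 tails bind membrane-associated guanylate kinases such as SAP102 (*Dlg3*) and PSD-95 (*Dlg4*), which are linked through the SAPAP proteins (*Dlgap1* to *Dlgap4*) to the SHANK proteins and from there to Homer and actin.

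Each library lists a whole number per gene, and these numbers sum to between 999047 and 999717, so that they were treated as rounded values scaled to a common total. The reads behind them and their possible division by gene length are not given in the sources used here, and values were therefore compared between libraries and not between genes. A listed 1 can stand for any value that rounds to it, which limits the genes with the lowest values. The targeted gene *Kcna1* stood at 16 throughout Ctrl-dCas9A and at 68, 47 and 65 under its own guide (log2 fold change 1.83, adjusted p = 0.0345 from limma). With 1 library left out in turn, this call held only without Ctrl-dCas9A replicate 3, and without any of the other five 0 genes of any kind passed, the markers below included. Neuronal markers were present in every library, and the median log2 fold change of 8 of them was 0.01. They summed to 6105 to 6983 in Ctrl-dCas9A and 7157 to 8533 in Kcna1-dCas9A, but the order turned when *Tubb3* was left out after its values were seen, with sums of 4243 to 4387 and 3936 to 4205 over the other 7. *Prox1* and *Zbtb20*, taken here as markers of hippocampal neurons, and *Tbr1*, taken as one of cortical neurons, were all above 0 in the 6 libraries. Their presence does not decide between the region in the labels and that in the culture methods. Marker sums of several cell types differed between the groups without overlap. For 6 excitatory neuron markers the sum was 1167 to 1283 in Ctrl-dCas9A and 1052 to 1119 in Kcna1-dCas9A, of which *Neurod6* (log2 fold change -0.40) was lower and *Slc17a7* (0.61) higher in all 3 Kcna1-dCas9A libraries while the other 4 overlapped. The summed value of 8 astrocyte markers was 917 to 1034 in Ctrl-dCas9A and 663 to 692 in Kcna1-dCas9A, that of 9 microglia markers 23 to 28 and 58 to 78, that of 8 oligodendrocyte lineage markers 66 to 98 and 40 to 44, and that of 8 genes of dividing cells 100 to 104 and 56 to 61. Of the oligodendrocyte lineage markers, 4 were lower in all 3 Kcna1-dCas9A libraries, while *Mbp* (log2 fold change 0.91) was higher in all 3. The defining markers *P2ry12* (microglia) and *Mog* (myelinating oligodendrocytes) were listed at 0 in all libraries. In bulk RNA, fewer cells of a type and less RNA per cell cannot be told apart.

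Promoter windows of RefSeq (GRCm38.p6), which run from 250 bases before to 50 bases after an annotated start, were found for 5 of the 10 genes. Those of *Grin1*, whose subunit is in every receptor, and of *Grin2d*, the subunit gene whose groups did not overlap, are shown so that their base composition can be compared. Capitals mark the GC box GGGCGG, searched on both strands, which 35.7% of the 32851 windows hold at least once. The *Grin1* window is chr2:25319138-25319437 and the *Grin2d* window chr7:45866632-45866931, both on the minus strand, and the latter surrounds a start inside the gene.
Grin1: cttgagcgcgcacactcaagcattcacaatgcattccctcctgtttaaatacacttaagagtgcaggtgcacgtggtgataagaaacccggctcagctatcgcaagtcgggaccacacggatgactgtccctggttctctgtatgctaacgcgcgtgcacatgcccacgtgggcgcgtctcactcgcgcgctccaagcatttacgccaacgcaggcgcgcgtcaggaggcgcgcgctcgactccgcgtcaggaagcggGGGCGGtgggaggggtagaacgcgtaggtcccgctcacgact
Grin2d: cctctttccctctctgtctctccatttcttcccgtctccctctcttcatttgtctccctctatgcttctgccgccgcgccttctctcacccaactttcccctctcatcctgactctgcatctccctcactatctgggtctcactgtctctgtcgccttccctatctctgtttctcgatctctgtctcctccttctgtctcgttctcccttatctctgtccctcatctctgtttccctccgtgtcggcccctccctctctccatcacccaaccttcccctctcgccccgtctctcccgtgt
The *Grin1* window held 1 GC box and 33 CpG dinucleotides, against a median of 7 CpG over all windows. The *Grin2d* window is rich in runs of C and T on the strand shown and held 0 GC boxes and 12 CpG. Among the other windows, that of *Shank3* held 4 GC boxes and 40 CpG, that of *Grin2c* 3 and 22, and those of *Dlg3* 0 and 9 or 1 and 28. A match of these letters is a description of the sequence and not a binding site.

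None of the NMDA receptor subunit or scaffold genes passed the test between the groups. Values were compared with limma on log2(value + 1) over the 19504 genes above 0 in at least 1 library, with a threshold of 0.05 for the p adjusted by the Benjamini-Hochberg method over all of them. Of the 10 genes 0 passed, where 1.16% of all genes tested did, and 2 of 10 had an unadjusted p under 0.05, where 23.2% of all genes did. Log2 fold changes (Kcna1-dCas9A over Ctrl-dCas9A) were above 0 for 5 genes and below 0 for 5, with a median of 0.04 against -0.02 over all genes tested. All 3 Kcna1-dCas9A libraries lay above all 3 Ctrl-dCas9A libraries for 1 gene, *Grin2d*, a pattern shared by 8.98% of genes tested, and below them for 1 gene, *Shank2*, a pattern shared by 13.3%. Summed over the 10 genes, the values were 855, 1021 and 998 in Ctrl-dCas9A and 1042, 878 and 1046 in Kcna1-dCas9A, and the groups overlapped. The labels do not say whether the 3 libraries of a group came from separate cultures. If they did not, p-values measure only the spread between these libraries and not that between cultures.

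**Figure D1:**
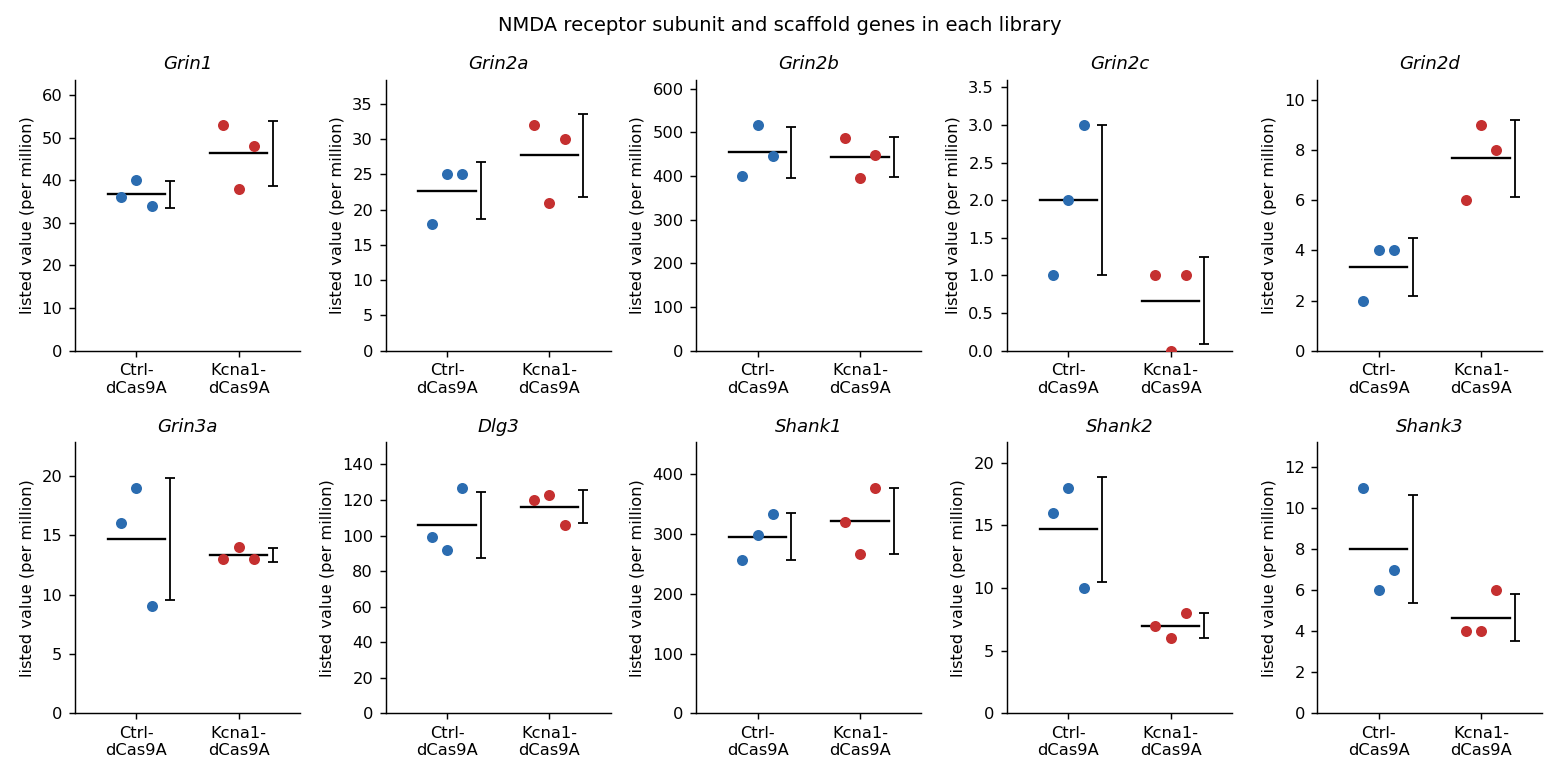
Listed value (scaled to a common total, linear axes from 0) of each gene in the 3 Ctrl-dCas9A (blue) and 3 Kcna1-dCas9A (red) libraries, with the mean (line) and SD (error bar). The groups are apart for *Grin2d*, at 2 to 4 against 6 to 9, and for *Shank2*, at 10 to 18 against 6 to 8, and overlap for the other genes.

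*Grin1*, the gene of the obligatory GluN1 subunit, had values of 36, 40 and 34 in Ctrl-dCas9A against 53, 38 and 48 in Kcna1-dCas9A. Kcna1-dCas9A replicate 2 fell within the Ctrl-dCas9A range, and the other two lay above it. The means were 36.7 ± 3.06 and 46.3 ± 7.64 (SD, n = 3 each), and the log2 fold change was 0.32 (95% confidence interval -0.04 to 0.68, adjusted p = 0.265 from limma). This interval holds folds from 0.97 to 1.6 on the log2(value + 1) scale, so that a difference within these bounds was not resolved with 3 libraries per group. The genes whose log2 values followed *Grin1* most closely over the 6 libraries, among the 8049 other genes averaging 10 or more, were *Cdk5rap3* (Pearson r = 0.98), *Tmem229b* (0.972) and *Faxc* (0.968). All of these were, like *Grin1*, lowest within their group in Kcna1-dCas9A replicate 2, and the 6 points share the scaling of each library.

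*Grin2b* encodes GluN2B, the GluN2 subunit of young forebrain neurons. It had values of 400, 517 and 445 in Ctrl-dCas9A against 486, 396 and 448 in Kcna1-dCas9A, and each group spanned nearly the same range. The log2 fold change was -0.03 (interval -0.33 to 0.27, adjusted p = 0.9 from limma), which corresponds to folds from 0.8 to 1.2, and its sign changed under both rescalings tried. *Grin2b* is on the chromosome that also carries the targeted gene, at chr6:135679844-136123529 on the minus strand of NCBIM37 (GENCODE vM1), 9.08 Mb from *Kcna1*. *Grin2a*, the gene of the later GluN2A subunit, had values of 18, 25 and 25 against 32, 21 and 30. Its groups overlapped through Kcna1-dCas9A replicate 2, and the log2 fold change was 0.27 (interval -0.23 to 0.77, adjusted p = 0.513 from limma). Leaving out Ctrl-dCas9A replicate 1 gave 0.12, leaving out Kcna1-dCas9A replicate 1 gave 0.16, and leaving out Kcna1-dCas9A replicate 2 gave 0.45. The ratio of the *Grin2b* to the *Grin2a* value, which does not depend on the scaling of a library, was 22.2, 20.7 and 17.8 in Ctrl-dCas9A and 15.2, 18.9 and 14.9 in Kcna1-dCas9A, with 1 Kcna1-dCas9A library inside the Ctrl-dCas9A range.

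*Grin2d* encodes GluN2D, a subunit of slowly closing receptors that is known in the adult forebrain mainly from interneurons. It had values of 2, 4 and 4 in Ctrl-dCas9A against 6, 9 and 8 in Kcna1-dCas9A, so that the groups did not overlap. The means were 3.33 ± 1.15 and 7.67 ± 1.53 (SD, n = 3 each). The log2 fold change was 1.02 (SE 0.29, interval 0.34 to 1.71), a fold of 2.03 on the log2(value + 1) scale, with an adjusted p of 0.0915 from limma. Over the alternatives tried it lay between 0.61 and 1.22, with adjusted p from 0.0235 to 0.247, and it passed with upper-quartile rescaling and with a robust variance. Microglia markers, by the sums given above, were higher in the same libraries, with *C1qa* (log2 fold change 1.61) past the threshold, and their part in the *Grin2d* difference was not tested. Of 7 inhibitory neuron markers 0 passed the threshold, *Gad1* (log2 fold change -0.60) and *Slc32a1* (-0.51) were lower and *Npy* (0.74) was higher in all 3 Kcna1-dCas9A libraries, and the other 4 overlapped. The 7 summed to 270 to 295 in Ctrl-dCas9A and 264 to 313 in Kcna1-dCas9A. The gene has a GC content of 65.0% in its longest coding transcript, against a median of 50.2% over 7738 genes averaging 10 or more, and across those genes the log2 fold change had a Spearman correlation of 0.26 with GC content. The part of GC content in the *Grin2d* difference was not tested, because the corrected fit held only genes averaging 10 or more.

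*Grin2c*, whose GluN2C subunit is best known from cerebellar granule cells, was at the limit of what whole numbers can show, at 1, 2 and 3 in Ctrl-dCas9A against 1, 0 and 1 in Kcna1-dCas9A. The log2 fold change was -0.86 with an interval from -1.82 to 0.10 (adjusted p = 0.262 from limma), and it was -1.96 with a pseudocount of 0.1 and -0.30 with one of 5. Without Kcna1-dCas9A replicate 2, the library at 0, it was -0.53. *Grin3a* encodes GluN3A, which lowers calcium entry through juvenile receptors. It had values of 16, 19 and 9 against 13, 14 and 13, with the Kcna1-dCas9A values inside the Ctrl-dCas9A range and a log2 fold change of -0.07 (interval -0.70 to 0.56) whose sign changed under both rescalings. The second GluN3 gene, *Grin3b*, was listed at 0 in all 6 libraries.

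**Figure D2:**
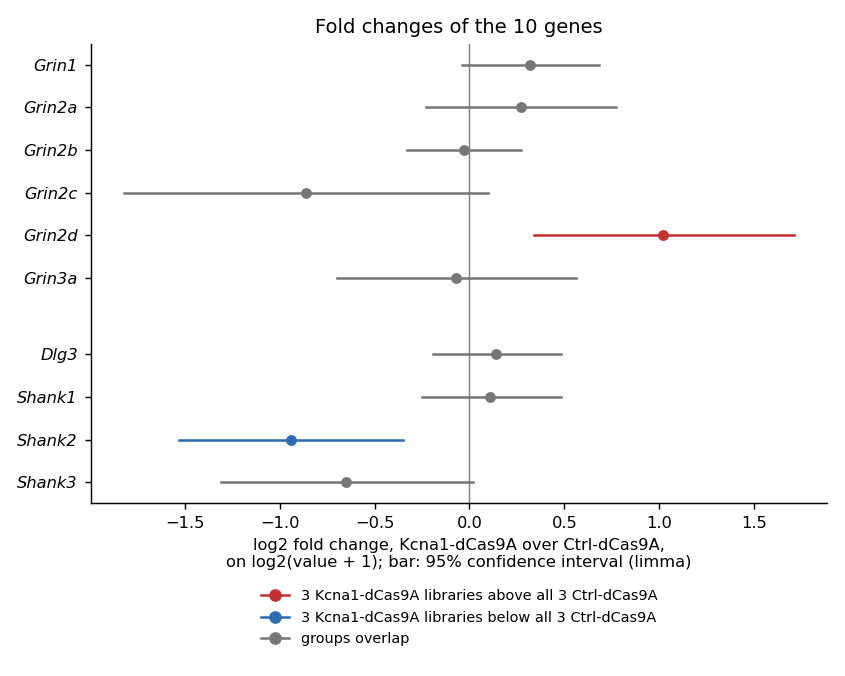
Log2 fold change of each gene (Kcna1-dCas9A over Ctrl-dCas9A, on log2(value + 1)) with its 95% confidence interval from limma, receptor subunits above and scaffolds below. The intervals of *Grin2d* (0.34 to 1.71) and *Shank2* (-1.53 to -0.35) lie on 1 side of 0 before adjustment for multiple tests, and those of the other 8 genes include 0.

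Within the summed value of the 4 GluN2 genes, *Grin2b* made up 95%, 94.3% and 93.3% in Ctrl-dCas9A and 92.6%, 93.0% and 92.0% in Kcna1-dCas9A, without overlap. The mean shares were 94.2% ± 0.867 and 92.5% ± 0.486 (SD, n = 3 each). The share of *Grin2d* was 0.475%, 0.730% and 0.839% in Ctrl-dCas9A and 1.14%, 2.11% and 1.64% in Kcna1-dCas9A. The share of *Grin2a* was 4.28%, 4.56% and 5.24% against 6.10%, 4.93% and 6.16%, and overlapped. That of *Grin2c*, which rests on values from 0 to 3, was 0.238%, 0.365% and 0.629% against 0.190%, 0% and 0.205%, without overlap. As the 4 shares add up to the whole they are not separate measurements, and the values of *Grin2a*, *Grin2b* and *Grin2c* themselves overlapped. These shares compare the same genes between libraries and were given no test, and they are not numbers of subunits, since the values of different genes may be scaled differently. The sums themselves were 421, 548 and 477 in Ctrl-dCas9A and 525, 426 and 487 in Kcna1-dCas9A.

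Among the scaffolds, *Shank2* had the lowest log2 fold change. SHANK proteins form the deep layer of the postsynaptic density, where they bind SAPAP and Homer. *Shank2* had values of 16, 18 and 10 in Ctrl-dCas9A against 7, 6 and 8 in Kcna1-dCas9A, with Ctrl-dCas9A replicate 3 nearest to the other group. The means were 14.7 ± 4.16 and 7 ± 1 (SD, n = 3 each). The log2 fold change was -0.94 (SE 0.25, interval -1.53 to -0.35), a fold of 0.52, with an adjusted p of 0.0793 from limma. The gene lies at chr7:151187833-151610399 on the plus strand of NCBIM37. Without Ctrl-dCas9A replicate 3 the log2 fold change reached -1.18 (adjusted p = 0.0252 from limma), and with each other library left out in turn it did not pass. The excitatory neuron, astrocyte, oligodendrocyte lineage and dividing cell marker sums were lower in the same libraries, as given above, with *Aqp4* (log2 fold change -1.42), *Aldoc* (-0.54), *Sox9* (-0.56) and *Olig2* (-1.05) past the threshold at adjusted p from 0.0486 to 0.0497 from limma, and their part in the *Shank2* difference was not tested.

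*Shank3* had values of 11, 6 and 7 in Ctrl-dCas9A against 4, 4 and 6 in Kcna1-dCas9A, and the groups touched at 6. This gave a log2 fold change of -0.65 (interval -1.31 to 0.02, adjusted p = 0.221 from limma), which ranged from -0.81 to -0.42 with each library left out in turn. *Shank1* had values of 256, 298 and 334 against 320, 267 and 378, with a log2 fold change of 0.11 (interval -0.25 to 0.48, adjusted p = 0.632 from limma), which turned to -0.02 with the GC correction. The values overlapped over most of their range. *Dlg3*, the gene of SAP102, a guanylate kinase scaffold that carries receptors in young neurons, had values of 99, 92 and 127 against 120, 123 and 106. This gave a log2 fold change of 0.14 (interval -0.19 to 0.48, adjusted p = 0.513 from limma), which was 0.05 without Ctrl-dCas9A replicate 2 and 0.28 without Ctrl-dCas9A replicate 3.

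In the summed value of the SHANK genes, *Shank2* took 5.65%, 5.59% and 2.85% in Ctrl-dCas9A and 2.11%, 2.17% and 2.04% in Kcna1-dCas9A, and the latter shares were close to one another. *Shank3* took 3.89%, 1.86% and 1.99% against 1.21%, 1.44% and 1.53%. The share of *Shank1* was correspondingly higher, 92.7% ± 2.35 in Ctrl-dCas9A and 96.5% ± 0.156 in Kcna1-dCas9A (SD, n = 3 each). None of the 3 shares overlapped between the groups, but as they add up to the whole they are not separate measurements, and the values of *Shank1* and *Shank3* themselves overlapped. For *Shank2*, Ctrl-dCas9A replicate 3 lay nearer to the Kcna1-dCas9A libraries than to the other two of its own group.

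**Figure D3:**
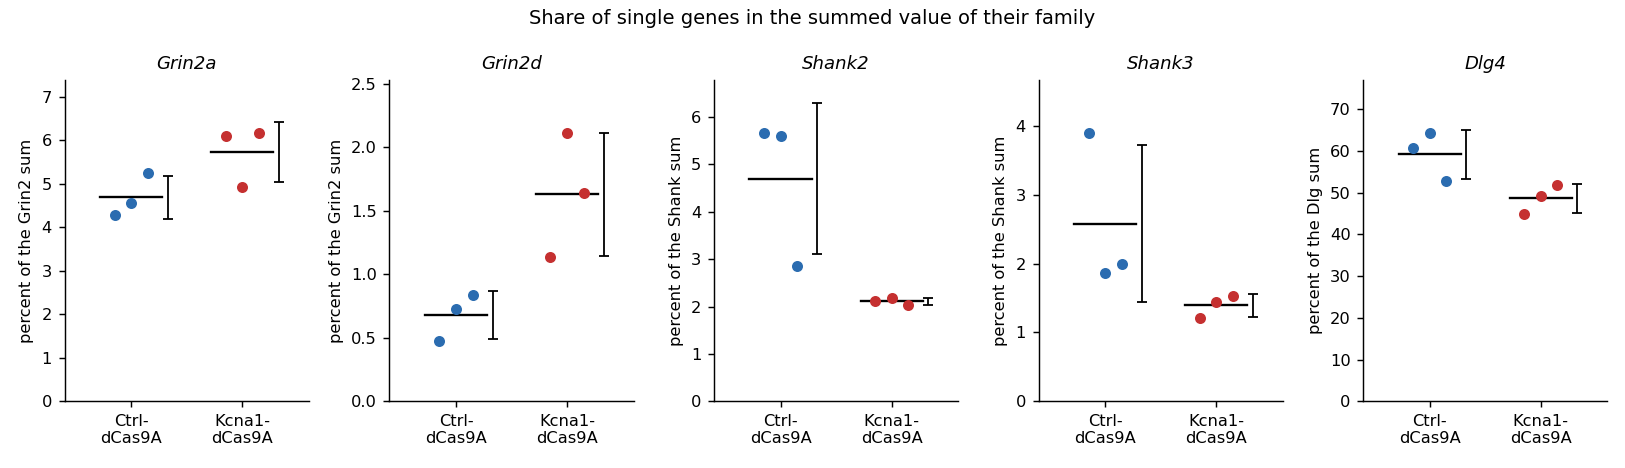
Share of *Grin2a* and *Grin2d* in the summed GluN2 genes, of *Shank2* and *Shank3* in the summed SHANK genes, and of *Dlg4* in the summed *Dlg1* to *Dlg4*, in percent of the sum for each library (points), with the mean (line) and SD (error bar). Shares of *Grin2d* (0.475% to 0.839% against 1.14% to 2.11%) and *Shank2* (2.85% to 5.65% against 2.04% to 2.17%) do not overlap between the groups, and those of *Grin2a* do.

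Of the other membrane-associated guanylate kinases, 0 passed the threshold. *Dlg4*, the gene of PSD-95, had values of 338, 374 and 276 in Ctrl-dCas9A against 198, 217 and 227 in Kcna1-dCas9A, without overlap. This gave a log2 fold change of -0.61 (SE 0.13, adjusted p = 0.0556 from limma). The adjusted p from limma was 0.00439 in the fit of genes averaging 10 or more, where 28.4% of all such genes passed. *Dlg1* (SAP97) had values of 24, 18 and 15 against 12, 11 and 11, with a log2 fold change of -0.67 (adjusted p = 0.0976 from limma). *Dlg2* (PSD-93) overlapped, with a log2 fold change of -0.03. The ratio of the *Dlg4* to the *Dlg3* value was 3.41, 4.07 and 2.17 in Ctrl-dCas9A and 1.65, 1.76 and 2.14 in Kcna1-dCas9A, so that Ctrl-dCas9A replicate 3 came within a few hundredths of the other group. The 4 genes together summed to 557, 583 and 524 against 442, 440 and 438, without overlap.

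A list of 55 further genes that bind, anchor, transport or signal from NMDA receptors was examined in the same fit. In it 52 were above 0 and 0 passed the threshold in either direction, while *Kif17*, *Grin3b* and *Dao* were listed at 0 throughout. At an unadjusted p under 0.05 there were 9 with higher and 7 with lower values, 30.8% of the 52 where 23.2% of all genes tested had one. The groups did not overlap for 9 genes with higher values (17.3%, against 8.98% of all genes) and for 7 with lower values (13.5%, against 13.3%). The median log2 fold change was -0.03 over 16 postsynaptic scaffolds, -0.04 over 16 signalling partners, 0.06 over the 12 tested transport and membrane partners and -0.23 over the 8 tested subunit and co-agonist genes. With the fit confined to the 8050 genes averaging 10 or more, 10 of 41 passed (6 higher and 4 lower), where 28.4% of all such genes did, and after rescaling by median-of-ratios factors 7 of 52 did (5 higher and 2 lower), where 8.82% of all genes passed.

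The 2 genes with the highest listed values in each group of this list, among the scaffolds *Dlg4* and *Dlgap4*, did not pass the threshold. *Dlgap4*, a SAPAP protein that joins PSD-95 to SHANK, had values of 176, 183 and 213 against 266, 242 and 250. This gave a log2 fold change of 0.41 (adjusted p = 0.0692 from limma). *Dlgap1* of the same family, picked after its values were seen, had values of 262, 264 and 244 against 203, 179 and 171, with a log2 fold change of -0.48 (adjusted p = 0.0556 from limma), and the groups overlapped for *Dlgap2* and *Dlgap3* but not for *Dlgap1* and *Dlgap4*. *Camk2b*, a subunit of the calmodulin kinase that docks on GluN2B, had overlapping values and a log2 fold change of -0.26. *Ppp3ca*, the catalytic subunit of the calcium-dependent phosphatase calcineurin, was lower in all Kcna1-dCas9A libraries, at 866, 766 and 726 against 675, 639 and 651 (log2 fold change -0.26, adjusted p = 0.149 from limma). *Apba1* and *Lin7c*, which belong to a complex that links receptors to transport motors, had log2 fold changes of 0.52 and -0.30. The D-serine synthase gene *Srr* and the serine transporter gene *Slc1a4* had log2 fold changes of -0.20 and 0.28.

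Further genes on the list were singled out after their values were seen. *Camk2a*, the other main kinase subunit at these synapses, had values of 88, 93 and 124 in Ctrl-dCas9A against 146, 145 and 175 in Kcna1-dCas9A (log2 fold change 0.62, adjusted p = 0.0692 from limma). *Ephb2*, a receptor that binds GluN1, had values of 134, 129 and 159 against 209, 163 and 233 (log2 fold change 0.51, adjusted p = 0.106 from limma). *Homer3*, which links SHANK to metabotropic receptors, had values of 24, 35 and 57 against 63, 67 and 77 (log2 fold change 0.90, adjusted p = 0.119 from limma), with the Ctrl-dCas9A libraries spread over a wide range. In all of these the groups did not overlap, and all of them passed after median-of-ratios rescaling, as 8.82% of all genes did. Because they were picked by their values, neither property adds support. *Dapk1*, which went the other way (82, 61 and 48 against 42, 36 and 30, log2 fold change -0.78), did not overlap and passed there as well.

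**Figure D4:**
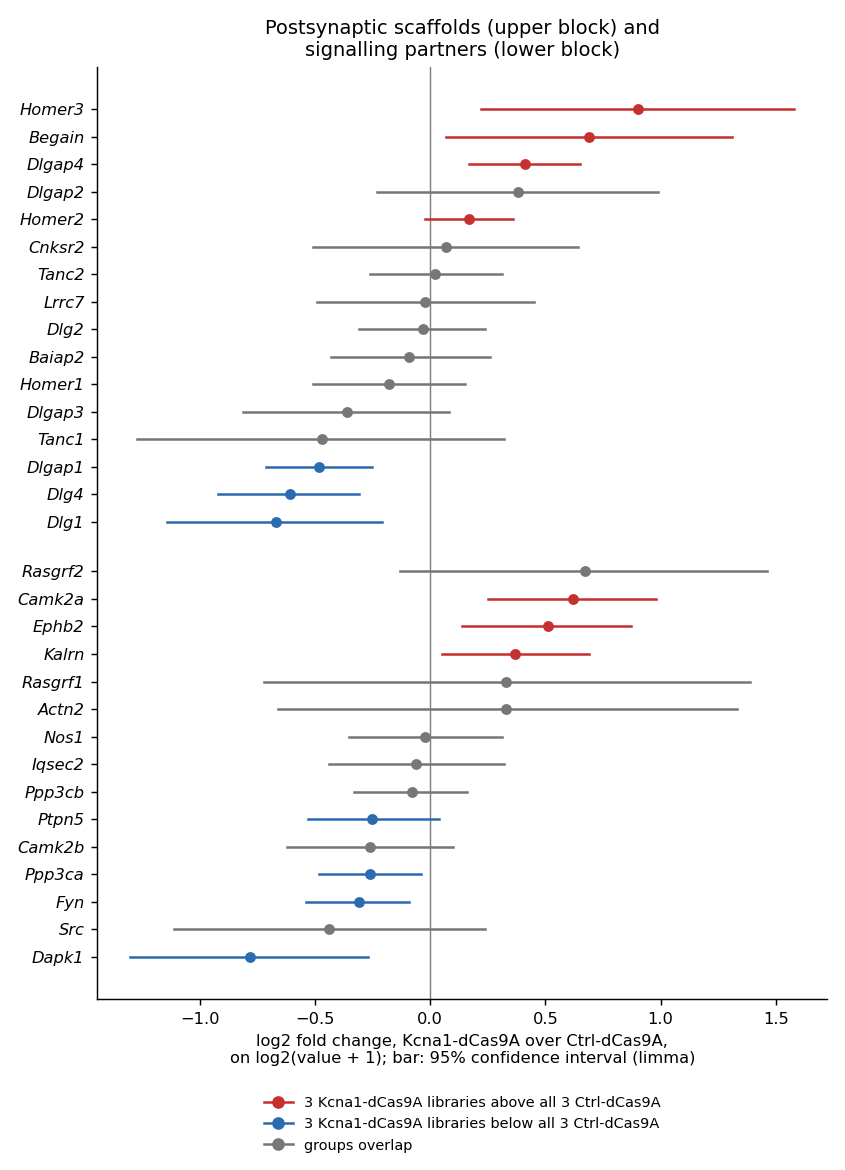
Log2 fold change (Kcna1-dCas9A over Ctrl-dCas9A, on log2(value + 1)) with 95% confidence interval from limma for 16 postsynaptic scaffolds (upper block) and for signalling partners (lower block), ordered by fold change. Genes such as *Dlgap4* (0.41) and *Camk2a* (0.62) lie on the side of higher values and *Dlg4* (-0.61) and *Dlgap1* (-0.48) on the other, and 0 of the genes shown passed an adjusted p of 0.05.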

How the data were processed

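The libraries were QuantSeq 3′ libraries of polyA RNA. Each deposited file holds a score per gene, a whole number that the authors had scaled to a common total per library and rounded, as read from the totals. The paper's methods name Bowtie2 and NCBI37/mm9, whereas the submitters' processing notes list STAR 2.7, featureCounts, DESeq2 and mm10, so that aligner and build are uncertain. Counting settings and depth are not given in the sources used here, and no interval that needs depth was computed. Because the files hold no counts, limma 3.58.1 (R 4.3.3) was fitted to log2(value + 1) with 1 coefficient for the group and an intensity trend, over 19504 genes listed above 0 somewhere. The fit was tested on simulated data beforehand. No pair of libraries held identical values. The 10 genes and the gene lists were chosen with earlier results of these data known. Genes were named by a rule: the 10 genes, *Kcna1*, in each group of the further list the 2 genes with the highest mean value and any past the threshold, the 3 genes most correlated with *Grin1*, and markers by list. *Dlg1*, *Dlg2*, *Dlgap1*, *Dlgap2*, *Dlgap3*, *Camk2a*, *Ephb2*, *Homer3*, *Dapk1*, *Mbp* and single neuronal markers fall outside it, having been picked once their values were seen. Some genes counted in the lists are not reported here by name. Alternatives were other pseudocounts, filters, rescalings, variance models, a replicate block, a GC correction, a threshold of 0.1 and each library left out. GC content came from GENCODE vM1 coding transcripts (96.1% of genes averaging 10 or more matched), and positions from NCBIM37.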

Additional observations from a re-analysis of the deposited data

How the results depend on the processing

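Of 164 fold changes of the 10 genes under alternatives, 144 kept their direction and side of the threshold, 8 passed it and 12 changed sign. Those past the threshold, 0 as reported, numbered 1 with a mean value of at least 1, a mean value of at least 10 (7 tested, with or without the GC correction), upper-quartile rescaling or without Gm42418 (15.3% to 20.2% of the total of a library), 2 with a robust variance, 0 to 1 with each library left out, and 2 at an adjusted p under 0.1. Over all genes tested, 1543 of 13604 passed with a mean value of at least 1. With one of at least 10, 2289 of 8050 did, and 2051 of 7738 with the GC correction. Upper-quartile rescaling gave 2058 of 19504 and the fit without Gm42418 1768 of 19503. A robust variance gave 2884 and an adjusted p under 0.1 gave 2258, both of 19504. The 8 passes were 6 of *Shank2* and 2 of *Grin2d*. *Shank2*, at means of 14.7 and 7, reached the mean of 10 only through its Ctrl-dCas9A values, so that its passes there do not bear on its difference. Sign changes were those of *Grin2b* (-0.03 as reported) to 0.06 with median-of-ratios and 0.09 with upper-quartile factors and 0.03 with the GC correction, of *Grin3a* (-0.07) to 0.01, 0.04 and 0.04 in the same order, and of *Shank1* (0.11) to -0.02 with the GC correction. With each library left out they ranged from -0.12 to 0.07 for *Grin2b*, from -0.36 to 0.14 for *Grin3a* and from -0.01 to 0.24 for *Shank1*.

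On the list of 55 further genes, those past the threshold, 0 as reported, numbered 1 with a pseudocount of 0.1, 1 with a pseudocount of 5, 6 with a mean value of at least 1, 10 with a mean value of at least 10, 7 with median-of-ratios factors, 9 with upper-quartile factors, 8 without Gm42418, 10 with a robust variance, 8 at a mean value of at least 10 with the GC correction, 7 at an adjusted p under 0.1 and 0 to 10 with each library left out. All genes past the threshold, 226 as reported (68 higher, 158 lower), numbered 627 with a pseudocount of 0.1, 475 with a pseudocount of 5, 1543 with a mean value of at least 1, 2289 with a mean value of at least 10, 1721 with median-of-ratios factors, 2058 with upper-quartile factors, 1768 without Gm42418, 0 with the replicate block, 2884 with a robust variance, 2051 at a mean value of at least 10 with the GC correction, 2258 at an adjusted p under 0.1 and 0 to 2711 with each library left out. Median-of-ratios factors gave 963 higher and 758 lower, upper-quartile factors 1226 and 832, and the fit without a trend 117 and 84. Among genes averaging 10 or more the median log2 fold change was -0.06 as reported, 0.03 with median-of-ratios and 0.06 with upper-quartile factors. Of the left-out libraries, only Ctrl-dCas9A replicate 3 gave any gene past the threshold, 2711 in all, 10 on the further list and *Shank2*. *Kcna1* (1.83, adjusted p = 0.0345 from limma) kept its fold change at 1.83 with the replicate block, where its adjusted p was 0.111 and 0 genes passed, and ranged from 1.73 to 1.99 with adjusted p from 0.0186 (without Ctrl-dCas9A replicate 3) to 0.143 with each library left out, none of the other five passing. The replicate numbers were not taken to pair the libraries, as deviations from the group means correlated at 0.014, 0.114 and 0.154 for the same numbers, and Ctrl-dCas9A replicate 1 correlated better with another number. The cause was not tested. The unknown depth and the rounding limit *Grin2c*, *Grin2d* and *Shank3* most, at values from 0 to 11.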
